A study of Mus musculus with 24 samples.

Results

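Hearts of mice heterozygous for the Ednra allele y129F were compared with hearts of wild-type mice, on 8 of the 24 arrays of the series. The 4 heterozygous and 4 wild-type hearts came from 8 different male C3HeB/FeJ mice, all 117 days old, and each heart was 1 array of an Illumina mouse bead platform. The allele arose by mutagenesis with ethylnitrosourea (ENU), a chemical that makes point mutations, and the line was put forward by its makers as a mouse counterpart of velocardiofacial and DiGeorge syndromes, in which the outflow tract and face form abnormally. The heterozygous animals carry 1 mutant and 1 normal copy, no other treatment or allele is given for either group, and homozygous tissue was not analysed here. The remaining 16 arrays hold bone and white adipose tissue of other mice of the same strain, sex and age. Whether the heterozygous and wild-type animals were littermates, or were collected at the same hour, the sources used here do not say.

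Ednra encodes the endothelin type A receptor, a G-protein-coupled receptor that couples mainly to Gq and phospholipase C and raises intracellular calcium. In the embryo it is read by cranial and cardiac neural crest cells, which receive endothelin-1 from neighbouring epithelium, and mice without it have malformed jaws and great vessels. In the adult heart the receptor sits on cardiac myocytes, fibroblasts and vascular smooth muscle, where endothelin-1 constricts vessels, strengthens contraction and feeds the hypertrophic response. Natriuretic peptides, clock output genes and glucocorticoid-responsive genes are all transcribed in the myocyte and respond to load, time of day and feeding state.

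The platform held 0 probes annotated to Ednra, so the mutated gene could not be used to check the genotype labels. The tissue label was borne out by the myocyte genes on all 8 arrays. Myh6, the alpha myosin heavy chain of mouse ventricle, lay between 14.0 and 14.29 on a log2 scale, and Myl2, the ventricular regulatory light chain, read 14.64 on each array, the top of the scale. Sftpc of lung alveoli and Bglap of osteoblasts were detected on 0 of the 8 arrays, with highest levels of 4.55 and 4.51, where probes detected on no heart array had a median of 4.35. Of the 25697 probes, 11669 were detected (detection p under 0.05) on at least 4 heart arrays, and the brightest such probe of each gene gave 8535 genes to test.

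Wild-type array 4 stood apart from the other 7. It detected 9931 probes, against 11467 to 12143 on the others. On it 1575 probes read as absent although all 7 other hearts detected them, where each other heart array alone lacked 26 to 47. Of those 1575 probes, 1341 were detected on all 8 bone arrays and 1414 on all 8 white adipose arrays. Its gene levels correlated with those of the other hearts at r = 0.841 to 0.873, while the other 7 correlated with each other at 0.985 to 0.995 (Pearson, across genes, which are not independent replicates). Several genes that every heart uses were among the missing: Cdh5, the cadherin of endothelial junctions, read 4.34 on this array and 8.15 to 8.96 on the others, and Nkx2-5, a cardiac transcription factor, read 4.46 against 8.44 to 9.11. The missing share was larger among dim genes. Among genes whose mean on the other 7 arrays was under 6, 15.7% were represented by such a missing probe, and the share was 13.5% from 6 to 8, 4.85% from 8 to 10, 1.76% from 10 to 12 and 0.316% at 12 and over. After the arrays were brought to 1 distribution, 4913 of 8535 genes read higher on it than on all 7 others. The counts over gene lists below, and most single genes, are therefore given over all 8 arrays and over the 7 without this one.

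**Figure D1:**
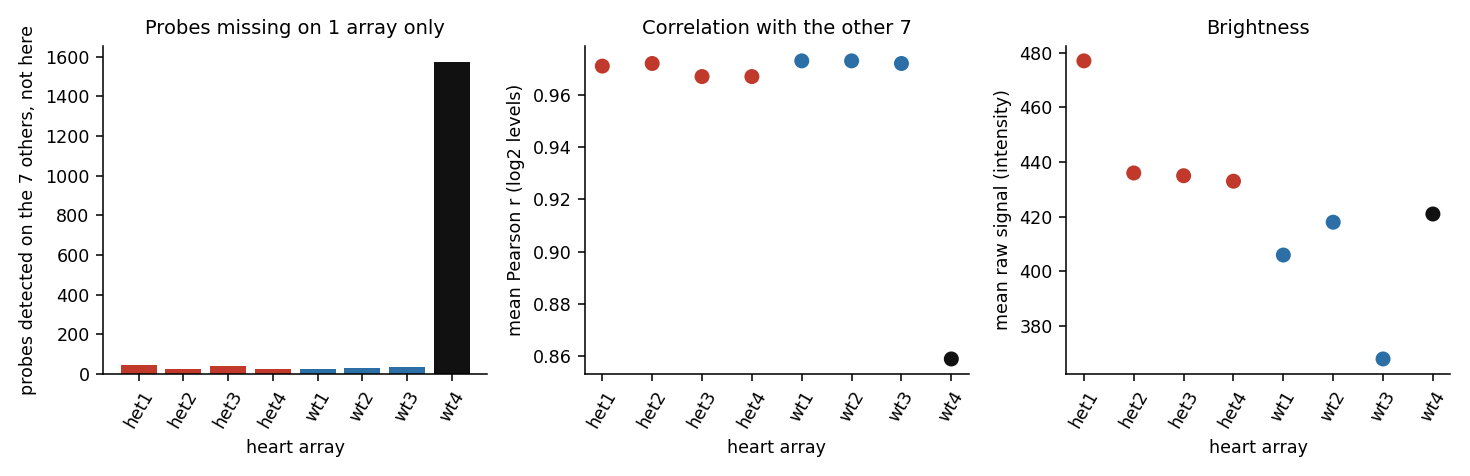
Measures of the 8 heart arrays, with heterozygous arrays in red, wild-type arrays in blue and wild-type array 4 in black: the number of probes detected on the 7 other hearts and not on that array, the mean Pearson correlation of its log2 gene levels with the other 7, and its mean raw signal in intensity units. Wild-type array 4 lacked 1575 probes where the others lacked 26 to 47, and all 4 heterozygous arrays were brighter than all 4 wild-type arrays.

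The groups also differed in brightness before normalisation. Mean raw signal was 477, 436, 435 and 433 on heterozygous arrays 1 to 4 and 406, 418, 368 and 421 on wild-type arrays 1 to 4, so the groups did not overlap. The means were 445 ± 20.9 and 403 ± 24.2 (SD, n = 4 each; exact two-sided permutation p = 0.0286, the smallest that 4 against 4 allows). The median raw signal separated the groups in the same way (higher by 6.78 in heterozygous hearts, exact permutation p = 0.0286), and the number of detected probes did not (exact permutation p = 0.171). Normalisation set the arrays to a common distribution, and since brightness separates the groups its part in the gene results cannot be told apart from genotype.

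No gene passed an adjusted p of 0.05 (limma's moderated test with Benjamini-Hochberg adjustment, heterozygous against wild-type). Over 8 arrays the smallest adjusted p was 0.609, and 474 of 8535 genes (5.55%) had an unadjusted p under 0.05, of which 146 were higher (1.71%) and 328 lower (3.84%) in heterozygous hearts. Over 7 arrays the smallest adjusted p was 0.168, and 898 of 8424 genes (10.7%) had an unadjusted p under 0.05, 408 of them higher (4.84%) and 490 lower (5.82%). In the 8-array data 685 genes (8.03%) had heterozygous and wild-type levels that did not overlap, 239 higher (2.8%) and 446 lower (5.23%), and in the 7-array data there were 907 (10.8%), 371 higher (4.4%) and 536 lower (6.36%). All differences below are therefore descriptions of these 8 hearts, ordered by unadjusted p, and none is a call. They are log2 values, heterozygous minus wild-type, on which 1 is a doubling. Scaling each array to its median in place of its whole distribution left 0 calls but turned the split at unadjusted p under 0.05 to 443 higher and 71 lower, so the balance of higher and lower genes depends on the scaling. The median difference over all genes was -0.09 over 8 arrays, -0.02 over 7, 0.07 with median scaling and -0.17 with brightness as a covariate.

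The 849 genes represented by a probe that wild-type array 4 alone lacked had a median difference of 0.52 over 8 arrays and 0.09 over 7. The 6731 genes detected on all 8 arrays had medians of -0.12 and -0.03. Leaving the array out brought the median standard error over all genes from 0.197 down to 0.118. Single genes show the size of this shift. Stip1, a co-chaperone that joins Hsp70 to Hsp90, read 10.08, 9.86, 10.17 and 10.47 on heterozygous arrays and 9.44, 9.54, 9.20 and 4.36 on wild-type arrays, a difference of 2.01 over 8 arrays and 0.74 over 7. Lyz2, the lysozyme of macrophages, went from 2.34 to 1.05, and its other probe read -0.14. Ppp2r1a, the scaffold subunit of protein phosphatase 2A, went from 2.11 to 1.21, and Nkx2-5 from 1.40 to 0.37. In Slc2a4, the insulin-responsive glucose transporter of muscle and fat, wild-type array 4 read 5.28 where the other wild-type arrays read 9.18, 8.86 and 8.67, and the difference went from 1.78 to 0.85. In all 5 genes the heterozygous levels lay above every wild-type level with or without the array, while the size of the difference rested on it.

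**Figure D2:**
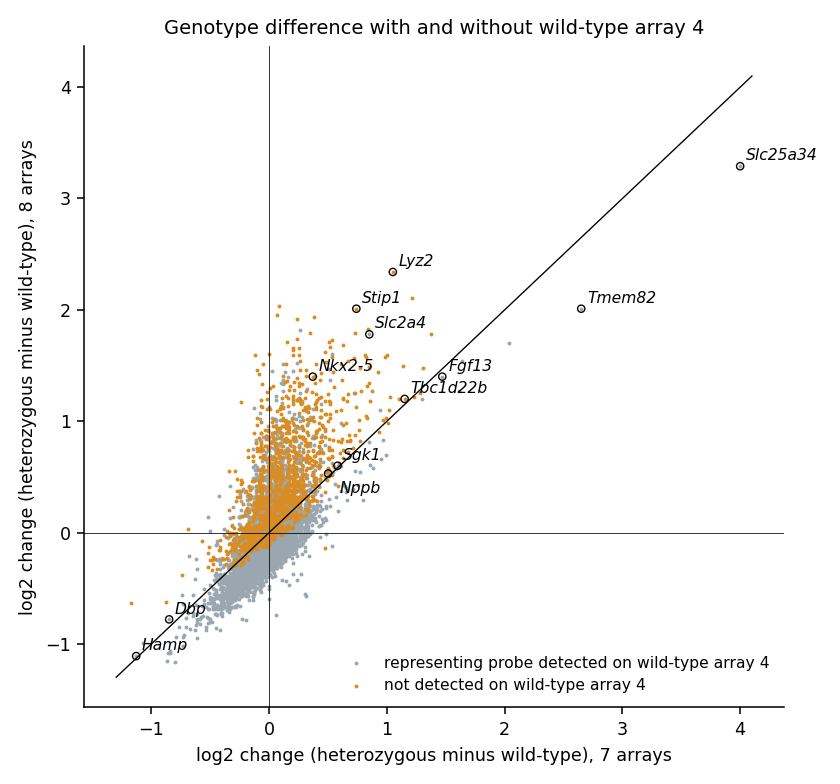
Each point is a gene, with the log2 difference (heterozygous minus wild-type) over 7 arrays on the x axis and over 8 arrays on the y axis; the diagonal marks equal values. Genes not detected on wild-type array 4 (orange) lie mostly above the diagonal, as Stip1 (0.74 and 2.01) and Nkx2-5 (0.37 and 1.40) do, while Sgk1, Nppb, Hamp and Dbp lie near it.

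Among the genes of wall stress and hypertrophy, the B-type natriuretic peptide stood out. Nppb, which myocytes secrete when the wall is stretched and which relaxes vessels and promotes salt loss, read 12.88, 12.67, 12.46 and 12.84 in heterozygous hearts and 12.27, 12.03, 12.31 and 12.14 in wild-type hearts. The groups did not overlap, and the lowest heterozygous heart lay above the highest wild-type heart. The difference was 0.53 (SE 0.107, 1.44-fold, n = 4 each), unadjusted p = 0.00086, and 0.50 over 7 arrays, where the adjusted p was 0.168. Rcan1, a calcineurin inhibitor transcribed in proportion to calcineurin activity, read 11.49, 11.34, 11.40 and 11.59 against 11.05, 11.14, 11.20 and 11.33, without overlap, a difference of 0.27 (SE 0.0872) over 8 arrays and 0.32 over 7. Acta1, the skeletal actin that is re-expressed in overloaded ventricles, went the other way with -0.41 (SE 0.126) over 8 arrays and -0.34 over 7, and heterozygous array 1, at 12.50, lay above wild-type array 2, at 12.44. Nppa, the atrial natriuretic peptide, read 14.31 to 14.41 in heterozygous hearts and 14.28 to 14.44 on wild-type arrays 1 to 3, with 13.25 on wild-type array 4, and its difference was 0.27 with that array and -0.02 without it. Of 19 measured genes of this list, 2 were higher and 1 lower at unadjusted p under 0.05, with or without wild-type array 4. Over all genes the shares were 1.71% and 3.84% over 8 arrays and 4.84% and 5.82% over 7. The list median was 0.06 over 8 arrays and -0.05 over 7. Ccn2, a matricellular protein induced by stretch and TGF-beta, was 12.03, 11.99, 11.96 and 12.69 in heterozygous and 12.22, 11.77, 11.66 and 11.71 in wild-type hearts, which overlap.

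The genes of fasting, FoxO and glucocorticoid response had 5 of 27 measured members higher at unadjusted p under 0.05 (18.5%, against 1.71% of all genes) and 0 lower, with a list median of 0.19 against -0.09 for all genes. Sgk1, a kinase induced by glucocorticoids, aldosterone and cell shrinkage, had the third smallest p of all genes. It read 10.87, 10.66, 10.69 and 11.02 in heterozygous and 10.39, 10.01, 10.28 and 10.16 in wild-type hearts. No heterozygous heart reached down to the wild-type range, and the difference was 0.60 (SE 0.116, 1.51-fold), with 0.58 over 7 arrays. Pdk4, which shuts glucose carbon out of mitochondria during fasting, read 12.69, 12.53, 12.81 and 12.97 against 12.50, 12.35, 12.29 and 12.38, a difference of 0.37 (SE 0.0979), with 0.36 over 7 arrays. Cdkn1a, the cell-cycle inhibitor p21, read 8.72, 8.63, 8.66 and 9.07 against 8.11, 8.40, 8.45 and 8.26, a difference of 0.46 over 8 arrays and 0.43 over 7, and its other probes read 0.52 and 1.44. Both genes were without overlap between groups. Depp1, a FoxO target, had a difference of 0.33 with no overlap, the heterozygous values being 10.72, 10.68, 10.71 and 11.04 and the wild-type values 10.67, 10.31, 10.41 and 10.45. Ddit4, an inhibitor of the growth kinase mTORC1, had 0.63, with 8.47, 8.58, 8.78 and 9.24 against 8.35, 8.14, 8.49 and 7.58, which overlap. Heterozygous array 4 gave the highest level of all 5 genes. Without it 4 of 27 members were higher at unadjusted p under 0.05 (14.8%, against 0.954% of all genes) and the list median was 0.10. Without wild-type array 4 there were 6 higher (22.2%, against 4.84% of all genes) and 1 lower, with a median of 0.09.

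**Figure D3:**
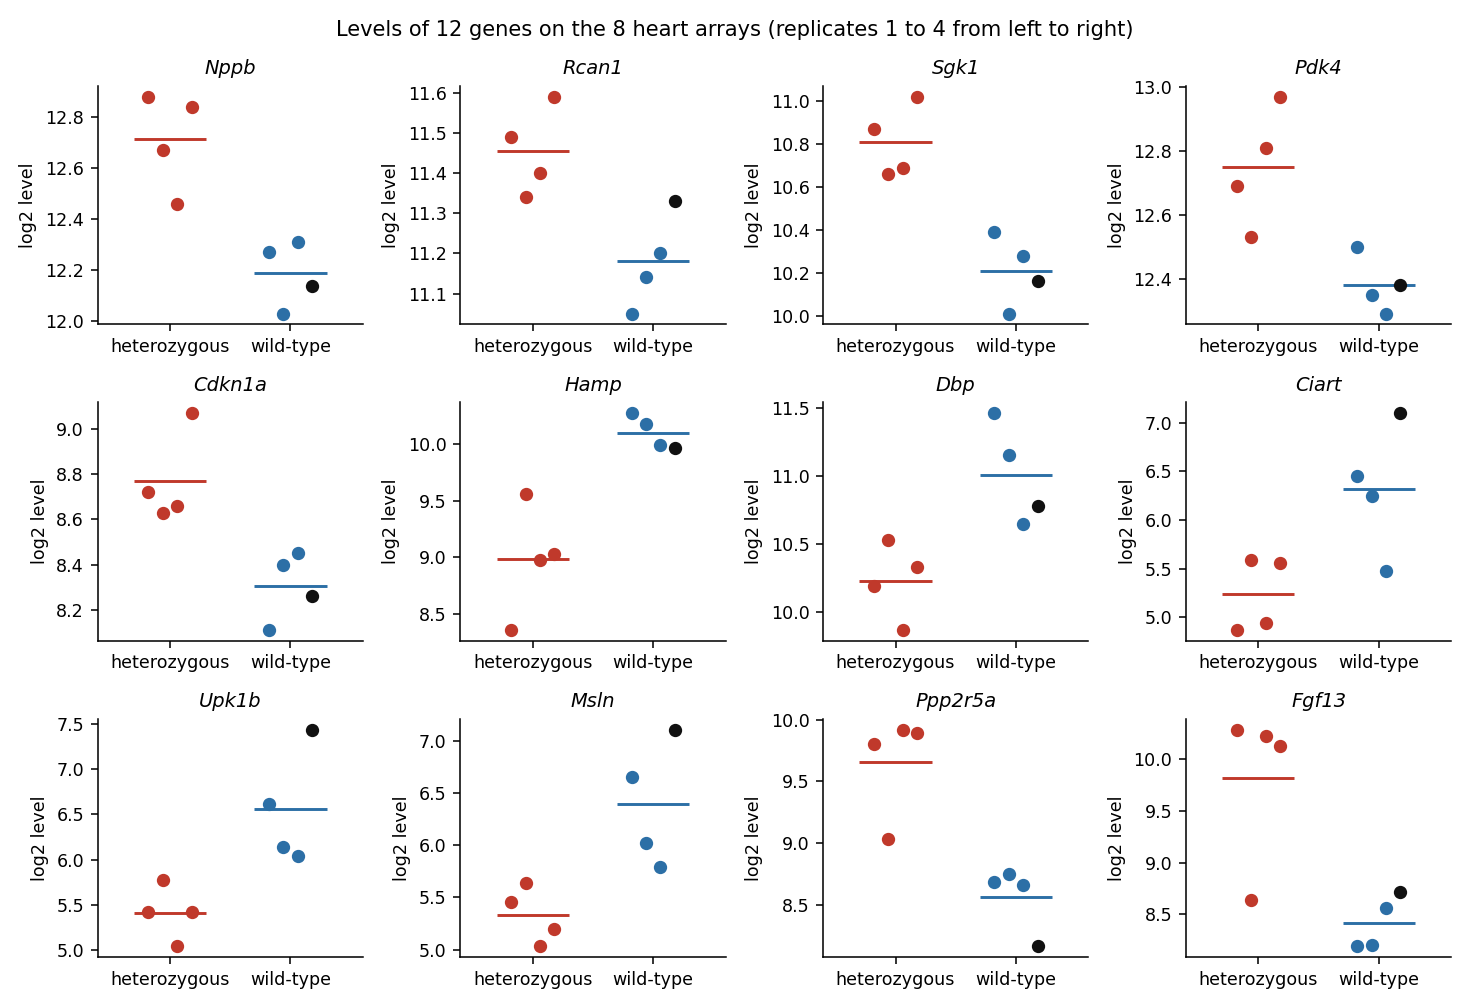
Log2 levels of 12 genes on each heart array (points; heterozygous red, wild-type blue, wild-type array 4 black) with the group mean as a line; the y axes do not start at 0 and differ between panels. Nppb, Rcan1, Sgk1, Pdk4 and Cdkn1a separate upward and Hamp, Dbp, Upk1b and Msln downward in heterozygous hearts, while in Fgf13 heterozygous array 2, at 8.64, lies beside the wild-type arrays.

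Of the clock genes, 3 read lower in the heterozygous hearts at unadjusted p under 0.05, and 10 of the 17 were higher in sign. Dbp, a PAR-domain transcription factor with a strong daily rhythm and a direct target of CLOCK and BMAL1, read 10.19, 10.53, 9.87 and 10.33 in heterozygous and 11.46, 11.15, 10.65 and 10.78 in wild-type hearts. The groups did not overlap, and the difference was -0.78 (SE 0.202) over 8 arrays and -0.85 over 7. Ciart, a repressor of CLOCK and BMAL1, read 4.87, 5.59, 4.94 and 5.56 against 6.45, 6.25, 5.48 and 7.10, where 2 heterozygous hearts lay above wild-type array 3, a difference of -1.08 over 8 arrays and -0.84 over 7. Its second probe gave -0.98. Tef, a relative of Dbp, read 8.94, 9.00, 8.74 and 9.00 against 9.44, 9.01, 9.22 and 10.03, a difference of -0.51 over 8 arrays and -0.30 over 7, and its second probe gave 0.11. Of 17 measured clock genes these 3 were lower at unadjusted p under 0.05 (17.6%, against 3.84% of all genes) and 0 were higher. The count was 4 of 16 without wild-type array 4 (25%, against 5.82% of all genes). It was 2 of 17 (11.8%) without heterozygous array 2 (against 2.62%) or without heterozygous array 4 (against 1.98%). Nr1d2, a nuclear receptor that closes the second clock loop, had -0.43 (unadjusted p = 0.067). Over the whole list the median was 0.10 over 8 arrays and -0.08 over 7, against -0.09 and -0.02 for all genes.

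The E-box CACGTG, the sequence that CLOCK and BMAL1 bind, occurs in the promoters of part of this list. In RefSeq's mouse windows from 250 bases before to 50 bases after each start (GRCm38.p6), 823 of 6947 tested genes with a window held it (11.8%), and of 14 clock genes with a window 5 did (35.7%): Ciart, Klf15, Per1, Tef and Tspan4. The motif reads the same on both strands, so 1 search covers both. The windows of the 3 clock genes with lower levels are shown because this is the binding sequence the clock is known for. The E-box is in capitals and each sequence runs 5′ to 3′ along the gene's strand.
Ciart (chr3:95882179-95882478, minus strand, 3 matches that begin 116, 58 and 44 bases before the start): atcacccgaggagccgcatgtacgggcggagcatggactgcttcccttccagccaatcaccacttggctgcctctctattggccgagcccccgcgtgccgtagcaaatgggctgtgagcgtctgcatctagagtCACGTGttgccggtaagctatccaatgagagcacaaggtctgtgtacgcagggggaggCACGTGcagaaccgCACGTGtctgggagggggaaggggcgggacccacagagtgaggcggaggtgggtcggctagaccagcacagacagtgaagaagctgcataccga
Tef, first start (chr15:81802423-81802722, plus strand, 1 match 127 bases before the start): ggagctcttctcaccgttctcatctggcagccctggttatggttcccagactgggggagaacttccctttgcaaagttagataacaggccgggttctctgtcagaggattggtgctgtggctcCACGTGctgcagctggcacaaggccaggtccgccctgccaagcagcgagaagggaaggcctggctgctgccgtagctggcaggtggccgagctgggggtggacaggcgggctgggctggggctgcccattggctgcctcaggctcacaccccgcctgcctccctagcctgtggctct
Tef, second start (chr15:81811164-81811463, plus strand, 1 match 138 bases before the start): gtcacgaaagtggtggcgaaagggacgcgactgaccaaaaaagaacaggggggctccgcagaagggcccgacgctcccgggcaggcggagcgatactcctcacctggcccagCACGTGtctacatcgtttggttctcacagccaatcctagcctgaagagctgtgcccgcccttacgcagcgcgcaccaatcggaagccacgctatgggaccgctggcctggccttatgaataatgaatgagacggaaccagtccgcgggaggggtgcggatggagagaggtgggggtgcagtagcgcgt
Dbp (chr7:45704997-45705296, plus strand, 0 matches): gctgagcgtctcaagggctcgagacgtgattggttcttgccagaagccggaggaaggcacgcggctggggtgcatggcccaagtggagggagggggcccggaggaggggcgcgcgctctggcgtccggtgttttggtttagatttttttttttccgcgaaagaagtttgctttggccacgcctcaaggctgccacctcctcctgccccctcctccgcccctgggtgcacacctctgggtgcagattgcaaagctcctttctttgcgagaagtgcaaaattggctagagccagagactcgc
Ciart carries 3 copies and Tef 1 at each of its starts, while these letters do not occur in the Dbp window, the gene with the smallest p of the 3. The matches describe the windows and do not show binding.

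Markers of the epicardium and of the mesothelium that covers the heart and lines the pericardium read lower in heterozygous hearts. Upk1b, a membrane protein of mesothelial cells, read 5.42, 5.77, 5.04 and 5.42 in heterozygous and 6.62, 6.14, 6.04 and 7.44 in wild-type hearts, without overlap, a difference of -1.15 (SE 0.318). Msln, the mesothelial surface protein mesothelin, read 5.46, 5.64, 5.03 and 5.20 against 6.65, 6.02, 5.79 and 7.11, also without overlap, a difference of -1.06 (SE 0.3). Krt8, a simple-epithelial keratin, had -0.55. In total 4 of 9 measured members were lower at unadjusted p under 0.05 (44.4%, against 3.84% of all genes), 0 were higher, and the list median was -0.31. Krt18, 1 of the 9, was detected on only 4 arrays, wild-type array 4 among them, at levels of 4.48 to 6.28. A member that barely passed the filter, partly through that array, cannot support the count. Without wild-type array 4, which gave the highest level of Upk1b and Msln, 3 of 8 were lower (37.5%, against 5.82% of all genes) and Upk1b and Msln stood at -0.87 and -0.84. Without heterozygous array 4, 2 of 9 were lower (22.2%, against 1.98%). Wt1, a transcription factor of epicardial cells, read 8.03 to 8.42 in heterozygous and 7.80 to 8.84 in wild-type hearts, which overlap. In whole hearts, fewer cells of a type and less RNA per cell cannot be told apart. In the adipocyte list Adipoq, the fat hormone adiponectin, read 5.40, 5.67, 5.48 and 6.05 in heterozygous and 6.28, 6.74, 5.73 and 6.98 in wild-type hearts, which overlap, a difference of -0.78 over 8 arrays and -0.61 over 7. Lep, leptin, was detected on 4 wild-type arrays and 1 heterozygous array, so it entered through the group where it is high, and it is given as levels alone, 4.41 to 4.77 and 5.01 to 6.05. These were the 2 of 9 members at unadjusted p under 0.05 over 8 arrays (22.2%, against 3.84% of all genes), a count that cannot be read as support because of Lep. Over 7 arrays there were 3 of 9 (33.3%, against 5.82%), and the list median went from -0.13 to -0.46. Wild-type array 2 had the highest adipocyte score of the 8, at 0.78 above the list's mean. The mast cell list, with 5 measured genes, had 2 lower (40%, against 3.84% of all genes) over 8 arrays and 1 (20%, against 5.82%) over 7. Of the 5, only 2 were detected on all 8 arrays. Cma1, Mcpt4 and Tpsb2 lay between 4.32 and 5.72, near background, so these counts cannot be read as a result about mast cells.

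**Figure D4:**
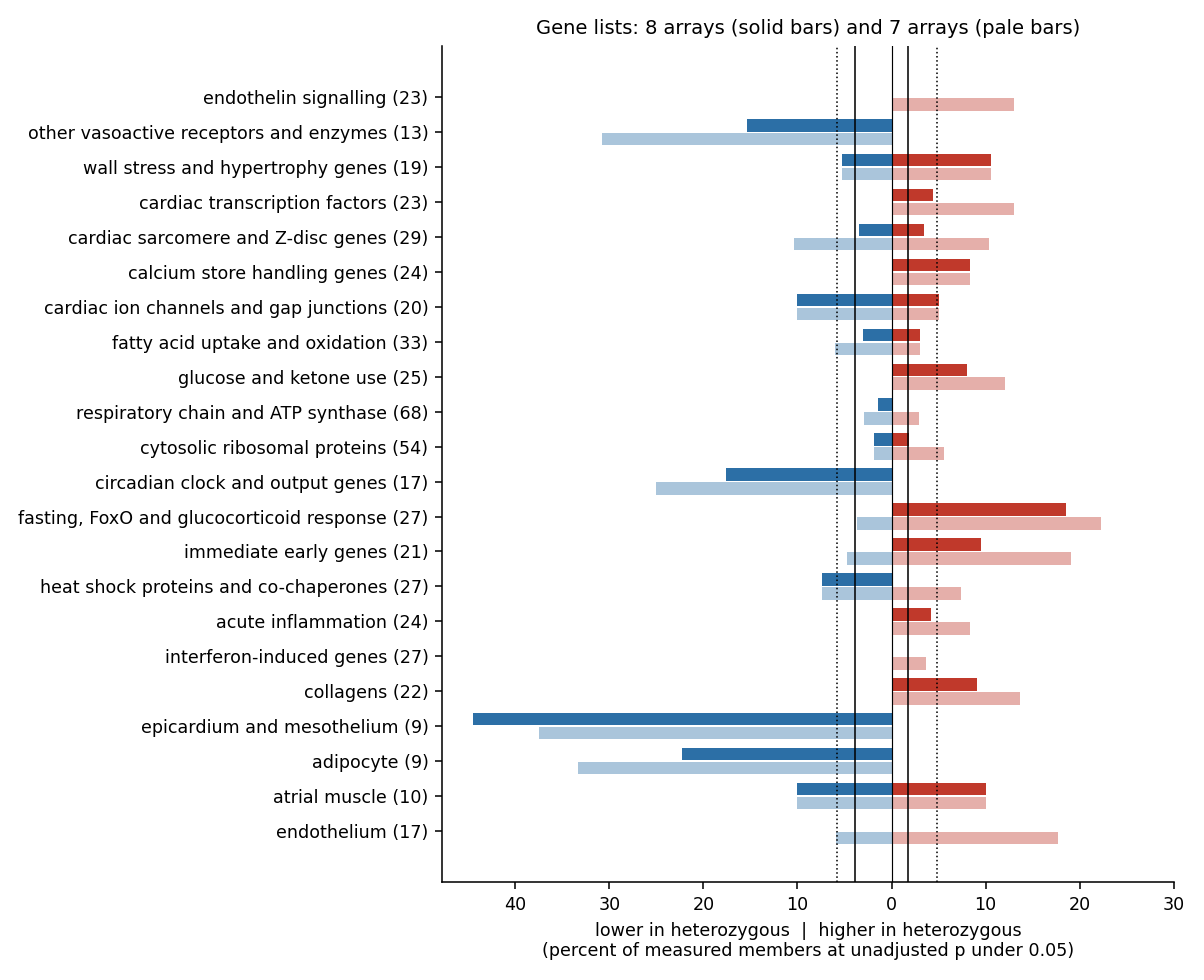
Percent of the measured members of selected gene lists (number in brackets) with an unadjusted p under 0.05, higher in heterozygous hearts to the right and lower to the left, over 8 arrays (solid bars) and over the 7 without wild-type array 4 (pale bars). Solid and dotted vertical lines give the same percentages over all genes with 8 arrays (1.71% and 3.84%) and 7 arrays (4.84% and 5.82%); among the lists drawn, the mesothelial, adipocyte, clock and vasoactive bars reach farthest to the left over 8 arrays and the fasting bar farthest to the right.

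Hamp had the lowest p of all lower genes. It encodes hepcidin, the peptide that closes the iron exporter ferroportin, and the heart makes its own. The levels were 8.36, 9.56, 8.98 and 9.03 in heterozygous and 10.27, 10.17, 9.99 and 9.96 in wild-type hearts, so that the heterozygous hearts were more spread (SD 0.491) than the wild-type hearts (SD 0.148), and the groups did not overlap. The difference was -1.11 (SE 0.225, 2.16-fold lower, n = 4 each), unadjusted p = 0.000845, and -1.13 over 7 arrays. Next among lower genes came Art5, an ADP-ribosyltransferase of muscle, with 9.44, 9.86, 9.76 and 9.65 against 10.09, 10.08, 10.12 and 10.12, a difference of -0.43 over 8 arrays and -0.41 over 7. Eif4ebp1, the translation repressor that mTORC1 switches off, read 10.24, 10.23, 10.29 and 10.06 against 10.60, 10.61, 10.43 and 10.77, a difference of -0.40 over 8 arrays and -0.34 over 7. Both kept their groups apart. Ascc1, a subunit of a transcription coactivator complex, had -0.60 with 1 other probe at 0.12, Rbm43 had -0.54, Kcnj14, an inward-rectifier potassium channel, had -0.83 and Golga2, a Golgi matrix protein, had -0.44 with other probes at -0.44 and 0.30. These differences are over 8 arrays alone. Wild-type array 4 read 10.33 for Ascc1, against 9.11 to 9.88 on the other 7. For Golga2 it also lay far above the other wild-type arrays, so both differences rest in part on it. Krt14, a keratin of stratified epithelium, had -0.94 at levels of 4.78 to 6.47, near the background. Igf2, a growth factor imprinted in the mouse, was picked out after its values were seen. It read 10.26 to 10.53 in heterozygous hearts and 10.90, 10.72, 10.83 and 10.43 in wild-type hearts, a difference of -0.33 over 8 arrays and -0.42 over 7. Heterozygous array 2 lay above wild-type array 4, and the groups were apart without that array.

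The smallest p-values among higher genes included 3 dim genes that passed the filter through the heterozygous arrays, so that their difference is taken against levels partly at background and is given with no p. Erdr1, an erythroid differentiation regulator, read 5.88, 5.96, 6.24 and 6.16 in heterozygous hearts, detected on all 4, and 5.29, 5.09, 4.63 and 4.43 in wild-type hearts, detected on 2. Tbc1d22b, a RabGAP-domain protein, read 5.28 to 6.09 in heterozygous hearts and 4.25 to 4.86 in wild-type hearts, detected on 1. Zeb2, a zinc-finger repressor of epithelial genes, read 5.44 to 6.04 and 4.66 to 5.23, detected on 2 wild-type hearts. In the next 3 genes heterozygous array 2 lay below the other heterozygous arrays. Ppp2r5a, a regulatory B56 subunit of protein phosphatase 2A that in heart reaches ion channels and the sarcomere, read 9.80, 9.03, 9.92 and 9.89 in heterozygous and 8.68, 8.75, 8.66 and 8.16 in wild-type hearts, a difference of 1.10 over 8 arrays and 0.94 over 7. Fgf13, a fibroblast growth factor homologous factor that stays in the cell and tunes cardiac sodium channels, read 10.29, 8.64, 10.23 and 10.13 against 8.19, 8.20, 8.56 and 8.72. The difference was 1.40 (SE 0.355), the other probe gave 1.55, and the groups overlapped because heterozygous array 2 lay below wild-type array 4. Tmem63b, a mechanically gated cation channel, read 8.09, 6.93, 8.50 and 8.41 against 6.71, 6.59, 6.43 and 5.09, a difference of 1.78 over 8 arrays and 1.37 over 7. In these 3 genes heterozygous array 2 lay nearest to the wild-type hearts. Over all genes that array correlated at r = 0.994, 0.993 and 0.988 with wild-type arrays 1 to 3, at 0.864 with wild-type array 4, and at 0.991, 0.987 and 0.986 with heterozygous arrays 1, 3 and 4. The other heterozygous arrays were about as close to wild-type arrays 1 to 3 (0.985 to 0.99) as to each other (0.988 to 0.991). Without heterozygous array 2, Fgf13 was the single gene past the threshold, with an adjusted p of 0.0453 (limma). The array left out is the one that was low for Fgf13, so that result cannot be read as support for the gene. At unadjusted p under 0.05, 5 of 27 members of the fasting list were then higher (18.5%, against 1.64% of all genes). For mesothelium 4 of 9 were lower (44.4%, against 2.62%), in the list that holds Krt18, a member that cannot support the count. For adipocytes 2 of 9 were lower (22.2%, against 2.62%), in the list that holds Lep, so that count cannot be read as support.

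Slc25a34, a mitochondrial carrier of the SLC25 family, had the largest log2 difference of all 8535 genes, at 3.29 over 8 arrays and 4.00 over 7. It read 9.78, 10.36, 10.71 and 10.44 in heterozygous hearts and 4.74, 9.39, 4.76 and 9.25 in wild-type hearts. Wild-type arrays 1 and 3 lay near background, while wild-type arrays 2 and 4 lay just under the lowest heterozygous heart, so the SE was 1.1. Its neighbour on chromosome 4 in the RefSeq annotation, Tmem82, was looked up after this was seen. It read 8.19, 8.62, 8.89 and 9.14 in heterozygous hearts and 5.17, 7.79, 5.14 and 8.69 in wild-type hearts, so the same 2 wild-type hearts were low, and its difference was 2.01 over 8 arrays and 2.65 over 7. Heterozygous and wild-type levels overlapped for Tmem82 because wild-type array 4 lay above 2 heterozygous arrays. For both genes 2 wild-type hearts were near background and 2 were not.

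The endothelin pathway itself had no member past an unadjusted p of 0.05 over 8 arrays. Of 38 genes in the list 32 were on the platform and 23 were measured, and 0 of 23 reached an unadjusted p under 0.05 over 8 arrays, where all genes gave 5.55%. The list median was 0.04 against -0.09 for all genes, and the differences ran from -0.52 to 0.98. Ednrb, the type B receptor of endothelium, read between 9.27 and 9.70 in heterozygous and between 9.30 and 9.88 in wild-type hearts. Over 7 arrays 3 of 23 were higher at unadjusted p under 0.05 (13%, against 4.84% of all genes). Gna11, a G protein alpha subunit of the Gq class, had 0.32 over 7 arrays and 0.90 over 8, since wild-type array 4 read 6.74 against 8.99 to 9.07 on the other wild-type arrays. Plcb4, a phospholipase C that Gq proteins activate, had 0.61 over 7 and 0.37 over 8. The third was Nfatc1, a calcineurin-dependent transcription factor, at 0.25 over 7 and 0.06 over 8. Edn1, the ligand, read 6.11 to 6.49 in heterozygous hearts and 6.10 to 6.63 on wild-type arrays 1 to 3, which overlap, and 4.41 on wild-type array 4, where its probe was not detected.

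Other vasoactive receptors and enzymes had 2 of 13 measured members lower (15.4%, against 3.84%) and 0 higher over 8 arrays, and 4 of 13 lower over 7 (30.8%, against 5.82%). Npr2, the guanylyl cyclase receptor of C-type natriuretic peptide, read 9.00, 8.93, 8.85 and 8.70 against 9.04, 9.09, 9.33 and 9.91, without overlap, a difference of -0.47 over 8 arrays and -0.27 over 7. Adm, the vasodilator peptide adrenomedullin, had -0.61 and -0.49, with heterozygous array 2, at 6.08, above wild-type array 1, at 6.02. The 2 further members over 7 arrays were Npr1, the receptor of Nppa and Nppb, at -0.48, and Aplnr, the apelin receptor, at -0.28, which were -0.28 and -0.20 over 8 arrays.

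Immediate early genes, which respond within minutes to stretch, ischaemia and handling, had 2 of 21 members higher over 8 arrays (9.52%, against 1.71%) and a median of 0.23. Fos, a subunit of AP-1, read 6.84, 7.84, 8.04 and 5.83 in heterozygous and 5.32, 5.70, 6.46 and 6.29 in wild-type hearts, a difference of 1.20 (SE 0.491) with overlap. Klf2, a shear-induced factor of endothelium, had 0.31. Atf3, a stress-induced factor, had 0.34 over 8 arrays and 0.44 over 7. Over 7 arrays 4 of 21 were higher (19%, against 4.84% of all genes) and 1 lower (4.76%, against 5.82%), and without heterozygous array 4 there were 4 higher (19%, against 0.954%). The spread within the heterozygous group was large for Fos (SD 1.02).

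Contractile, calcium and conduction genes had 1 to 3 members per list past the same limit over 8 arrays, where all genes gave 1.71% higher and 3.84% lower. Of 29 sarcomere and Z-disc genes 1 was higher and 1 lower (3.45% each) and 3 were higher and 3 lower over 7 arrays (10.3% each), with a median of 0.05 over 8: Tpm1, alpha-tropomyosin, at 0.20 without overlap and Acta1, given above. Of 24 calcium-handling genes 2 were higher (8.33%) over 8 arrays and over 7. Fkbp1a, which stabilises the ryanodine receptor, read 10.11, 9.81, 10.15 and 10.08 against 9.66, 9.75, 9.46 and 8.87, a difference of 0.60 over 8 arrays and 0.41 over 7. Stim1, the calcium sensor of the sarcoplasmic reticulum, was detected on 4 heterozygous arrays and 1 wild-type array, so it entered through the group where it is high and does not support that count. Of 20 ion channel and gap junction genes 1 was higher (5%) and 2 lower (10%), with the same counts over 7 arrays. Over 8 arrays they were Gja5, connexin 40 of atrium and conduction fibres, with 1.25 over 8 arrays and 0.73 over 7, and on the lower side Cacna1g, the T-type channel Cav3.1, with -0.56 over 8 arrays and another probe at -0.07, and Fxyd1, the sodium pump regulator phospholemman, with -0.29 over 8 arrays, -0.11 over 7 and another probe at 0.48. For Cacna1g wild-type array 4 read 6.79, against 5.35 to 6.09 on the other 7. Over 7 arrays no member of this list lay below -0.38. Of 23 cardiac transcription factors Mef2a, at 0.54, was the member past this limit over 8 arrays (4.35%), and wild-type array 4 did not detect it. Over 7 arrays there were 3 of 23 higher (13%, against 4.84%), and Mef2a was at 0.37. Bmp4, a growth factor of the outflow tract and valves, had -0.33 without overlap.

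Metabolic and housekeeping groups had medians close to 0. The median difference was 0.01 for 68 respiratory chain and ATP synthase genes, -0.03 for 66 mitochondrial ribosomal proteins, 0.01 for 54 cytosolic ribosomal proteins, -0.03 for 16 citric acid cycle genes and -0.03 for 33 genes of fatty acid uptake and oxidation. In each of these groups 0 to 1 genes were higher and 0 to 1 lower at unadjusted p under 0.05 over 8 arrays. Pdk4 was among the higher and Eci2, an isomerase of unsaturated fatty acid oxidation, among the lower with -0.56. The shares were 0 to 3.03% higher and 0 to 6.25% lower, against 1.71% and 3.84% of all genes, and over 7 arrays 0 to 5.56% and 0 to 6.25%, against 4.84% and 5.82%. The 25 measured genes of glucose and ketone use had medians of 0.05 over 8 arrays and 0.01 over 7. Of these, 2 were higher over 8 arrays (8%, against 1.71%) and 3 over 7 (12%, against 4.84%), with 0 lower. The unfolded protein response had 0 of 18 members in either direction over 8 arrays and 1 lower over 7, and interferon-induced genes had 0 of 27 over 8 and 1 higher over 7.

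Collagens had 2 of 22 members higher over 8 arrays (9.09%, against 1.71% of all genes) and 3 over 7 (13.6%, against 4.84%), with medians of 0.11 and 0.05. Homologues of genes in the human 22q11 deletion region, deleted in most patients with velocardiofacial syndrome, had 1 of 22 members lower (4.55%, against 3.84%) over 8 arrays and 2 (9.09%, against 5.82%) over 7, with medians of -0.08 and -0.03.

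Single hearts differed in ways that crossed the genotype groups. Heterozygous array 4 carried the highest scores of the neutrophil list (1.45 above the list's mean over the 8 arrays, 7 genes) and of acute inflammation (1.08, 24 genes). S100a8, a calprotectin subunit of neutrophils, read 9.74 there and 7.69, 7.63 and 6.35 on heterozygous arrays 1 to 3, against 6.12, 5.88, 5.36 and 7.26 in wild-type hearts. Its difference of 1.70, and that of its partner S100a9 of 1.27, rested in part on that heart: the neutrophil median was 0.31 with it and -0.05 without it, and 1 and 0 of the 7 members were higher at unadjusted p under 0.05. Without wild-type array 4 the median was 0.48 and 2 of 7 were higher (28.6%, against 4.84% of all genes). Wild-type array 4 read highest of all in interferon-induced genes (0.60), with 20 of 27 members above the 7 other hearts, where the share over all genes was 4913 of 8535. Among members it detected, its median excess over wild-type arrays 1 to 3 was 1.06 for interferon-induced genes and 0.44 for all genes. The same measure was 1.10 for neutrophil, 1.08 for acute inflammation and 1.05 for MHC class II genes, and -0.12 for cardiomyocyte genes. The excess was therefore not particular to interferon-induced genes. Heterozygous array 2 had the highest erythroid (0.83) and platelet (0.79) scores. The mean score of atrial muscle genes was low on heterozygous arrays 1 and 3 (-0.33 and -0.28) and wild-type array 3 (-0.13). It was higher on heterozygous arrays 2 and 4 and wild-type arrays 1 and 2 (0.24 to 0.31). On wild-type array 4 it was -0.41, but 2 of the 10 members were not detected there. Among detected members its median excess over wild-type arrays 1 to 3 was -0.08. Sln, the atrial calcium pump regulator sarcolipin, read 12.32, 13.71, 12.72 and 13.36 in heterozygous and 13.82, 13.69, 12.83 and 13.83 in wild-type hearts, so it was not low on wild-type array 4. The part of these differences between hearts in the genotype values was not tested.

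**Figure D5:**
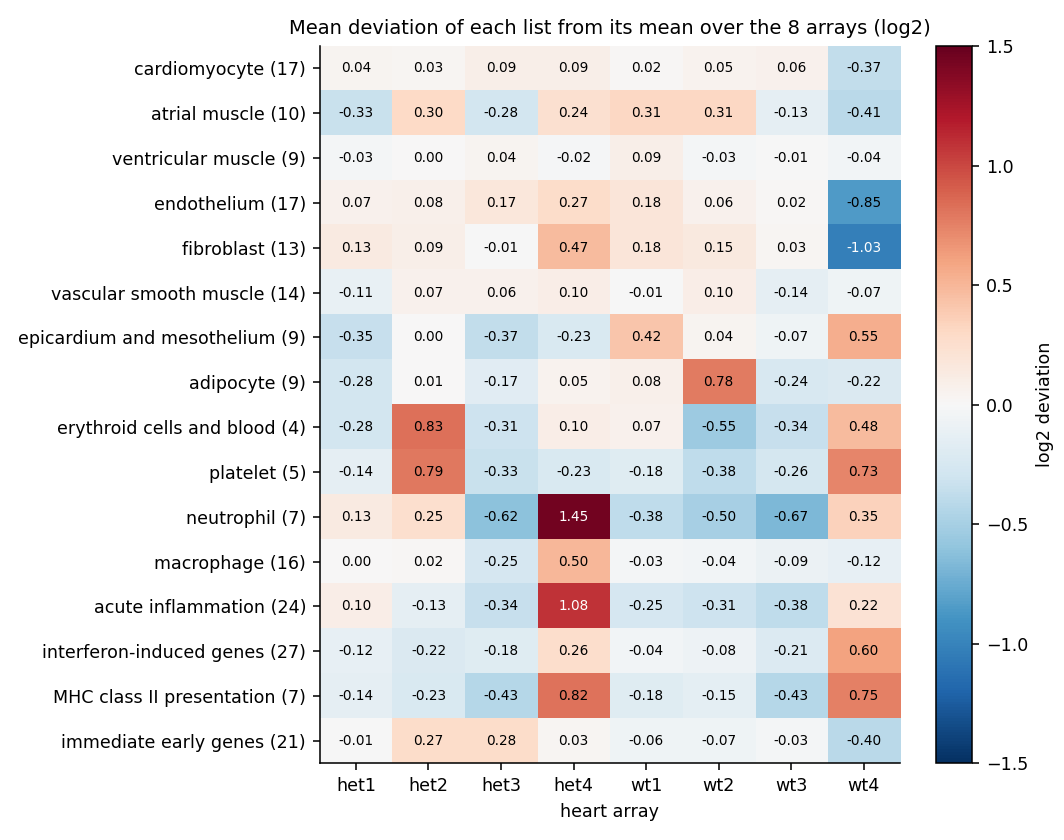
For each marker or response list (number of measured genes in brackets), the mean log2 deviation of its genes from their own mean over the 8 heart arrays, by array, printed in each cell and coloured from blue (low) to red (high). Heterozygous array 4 is high in neutrophil and inflammation genes (1.45 and 1.08) and heterozygous array 2 in erythroid and platelet genes (0.83 and 0.79). The means of fibroblast and endothelium genes are low on wild-type array 4 (-1.03 and -0.85). Among members it detected, its median excess over wild-type arrays 1 to 3 was 0.03 and -0.02.

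Whether the heart differed from the other tissues in its genotype effect was tested as an interaction with all 24 arrays normalised together. Against bone 0 of 7929 genes passed an adjusted p of 0.05 (592 had an unadjusted p under 0.05), and against white adipose tissue 0 of 7936 (1778 unadjusted, smallest adjusted p 0.0659; limma). Without wild-type array 4 there were 8 of 7862 against bone, 6 higher (0.0763%) and 2 lower (0.0254%) in heart, and 522 of 7876 against white adipose tissue, 245 higher (3.11%) and 277 lower (3.52%). In white adipose tissue brightness separated the groups the other way from heart. Mean raw signal there was 820, 811, 733 and 702 on wild-type arrays and 666, 661, 553 and 643 on heterozygous arrays. The part of brightness in the contrasts with adipose tissue, here and below, cannot be told apart from genotype. The bone and adipose arrays came from other animals than the hearts, and 1 animal number is given by the labels to both a wild-type and a heterozygous sample of those tissues.

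Several leading heart genes differed from the other tissues in the fit without wild-type array 4. The Dbp difference was -0.75 for heart, 0.52 for bone and 1.39 for adipose tissue, and heart minus bone was -1.28 (adjusted p = 0.0498) and heart minus adipose tissue -2.14 (adjusted p = 0.021). With all arrays the same contrasts were -1.22 and -2.09, with adjusted p of 0.429 and 0.095. Zeb2 was 1.09 in heart and -0.40 in bone, a contrast of 1.49. It is given with no p, because 2 of 4 wild-type hearts detected it and it passed the filter through the heterozygous hearts. Ppp2r5a was 0.90 in heart, -0.04 in bone and -0.15 in adipose tissue, and heart minus adipose tissue was 1.05 (adjusted p = 0.021; 0.095 with all arrays). Itga1, the alpha1 collagen receptor integrin, was 0.33 in heart and -0.53 in adipose tissue, and Tmem150a, a membrane protein that helps place a lipid kinase, was -0.27 and 0.66, each with adjusted p = 0.00737. Bmx, an endothelial tyrosine kinase, was -0.40 in heart and 0.29 in bone (adjusted p = 0.0498). For Cdkn1a the heart gave 0.40 and adipose tissue -0.42 (adjusted p = 0.0307; 0.0972 with all arrays), and for Depp1 0.28 and 0.95 (adjusted p = 0.0271; 0.0972). Sgk1 was 0.52 in heart, 0.16 in bone and 0.32 in adipose tissue, and neither contrast passed (adjusted p = 0.349 and 0.374).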

How the data were processed

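Heart RNA was isolated by Trizol followed by RNeasy clean-up, and biotin-labelled cRNA was hybridised, per the labels' protocols. The authors' files held raw probe intensity in the series' value table, and in a second table the intensity the authors had background-subtracted and normalised, with detection p-values, as the values showed. GenomeStudio 2011.1 is named in the submitters' processing notes. The depth of a bead array is not a count, and 4 arrays per group limit the precision. Raw intensity was background-corrected (limma 3.58.1, nec with detection p-values, offset 16), quantile normalised within heart and logged to base 2 in R 4.3.3. Probes with detection p under 0.05 on 4 or more of 8 arrays were kept, the brightest standing for a gene; 23978 of 25697 probes had 1 symbol, none had several and 1719 had none. Levels near 4 are background. Groups were compared with lmFit and eBayes with a variance trend and Benjamini-Hochberg adjustment, tissue effects as an interaction, array brightness by exact permutation. Named genes were drawn from those with the smallest p in each direction, the largest differences without overlap, the endothelin genes, the members of each list with the smallest p or highest level, and the genes with the smallest p for each tissue difference. Genes outside this rule, chosen after their values were seen, are Igf2, Tmem82, Npr1 and those given only as levels on single arrays. The members and lists were chosen with earlier results of these data known. Each p-value sets a difference against the spread between arrays, with 1 animal per heart array. Over 8 hearts that spread includes the missing signal of wild-type array 4. In the tissue contrasts 1 animal number is shared between genotypes, as given above. The method was checked on simulated data.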

Additional observations from a re-analysis of the deposited data

Results flagged for a closer look

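In groups of 4, 1 array lay far from the other 3, by the ratio of its gap to the group's range, in 21 of the named genes' groups and in 1 array measure. By chance about 1 group in 20 would stand out so far, taken alone. Genes on the same array are not independent, so the count of 21 cannot be set against that rate. Wild-type array 4 was the array in question for Gna11 (0.964), Nkx2-5 (0.941), Stip1 (0.933), Lyz2 (0.932), Ppp2r1a (0.914), Plcb4 (0.903), Ascc1 (0.899), Slc2a4 (0.869), Nppa (0.862), Ppp2r5a (0.861), Cacna1g (0.851), Golga2 (0.842), Nfatc1 (0.836) and Tmem63b (0.832). It was low in Gna11, Nkx2-5, Stip1, Lyz2, Ppp2r1a, Slc2a4, Nppa, Ppp2r5a and Tmem63b and high in Plcb4, Ascc1, Cacna1g, Golga2 and Nfatc1. Heterozygous array 2 was the low one for Fgf13 (0.906), Ppp2r5a (0.864), Zeb2 (0.847) and Arhgap27 (0.836), and heterozygous array 4 the high one for Ccn2 (0.905) and Depp1 (0.891). Klf2 was high on wild-type array 1 (0.83). In mean raw signal heterozygous array 1 was brighter than the other 3 heterozygous arrays (0.94).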

How the results depend on the processing

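Under every alternative run on the 8 hearts 0 genes passed, with 1 exception: leaving out each array in turn gave 0 to 1 genes, the 1 being Fgf13 without heterozygous array 2. With 146 higher and 328 lower genes at unadjusted p under 0.05 as reported, counts moved by over 1.5 times to 256 higher with cyclic loess, 443 higher and 71 lower with median scaling, 315 and 525 with no filter, 61 higher with detection p under 0.01 in all 8 arrays, 274 higher with all probes tested singly, and 390 and 604 with array weights. Leaving out single arrays gave 74 to 408 higher and 163 to 490 lower, the largest without wild-type array 4 and the smallest without a heterozygous array. The replicate block gave 97 higher and 186 lower; replicate numbers did not pair the hearts (correlation of deviations -0.18, -0.152, 0.265 and -0.0739). Leaving out single heart arrays gave 0 to 8 genes for heart against bone and 0 to 522 against white adipose tissue, the largest of both without wild-type array 4. Of 1495 values of 66 named genes, 6 changed sign: Nppa was -0.03 with array weights and -0.02 without wild-type array 4 (-0.02 to 0.38 over the arrays left out), and Lyz2 was -0.14 with the stricter detection filter, which keeps its other probe. Nfatc1, 0.06 as reported, was -0.22 with array brightness as a covariate and -0.02 to 0.25 over the arrays left out, with -0.02 and -0.01 without wild-type arrays 1 and 3. Setting wild-type array 4 to missing for the probes it alone lacked, chosen after seeing the data, gave 183 higher, 398 lower and 0 past the threshold. The cause of the other changes was not tested. Signal over background limits genes at levels near 5.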
